A study of Cicer arietinum with 24 samples.

Results

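Genes that peaked at S1, the early-embryogenesis stage of the chickpea seed, were collected from FPKM values of seeds and leaf. FPKM is a count of fragments corrected for the length of the exons and the size of the library. A gene was taken when it had at least 10 FPKM at S1 and a score of at least 1, where the score is log2(FPKM + 1) at S1 minus the highest log2(FPKM + 1) among S2 to S7 and leaf. In all, 288 of 25107 genes (1.15%) met both limits, or 3.26% of the 8838 genes with at least 10 FPKM at S1. The 200 with the highest scores, of 25111 genes in the tables, are the S1-peaking genes described here. The genes were thus chosen by their measured FPKM in all 8 groups, so the values at S1 and the gap to the other groups describe the genes and test nothing.

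The seeds were whole seeds of field-grown chickpea (Cicer arietinum) plants of the cultivar JGK 3, taken at 7 stages of development. The study names S1, S2 and S3 early-, mid- and late-embryogenesis and S5 and S7 mid- and late-maturation, and S4 and S6 lie between their neighbours. Leaves came from field-grown plants of the same cultivar whose seeds were at mid-maturation. All groups share this cultivar, and the labels name no treatment or mutation. Each group had 3 samples, 24 in all, but only 1 pooled value per gene and group was analysed, so no spread between replicates, no error and no p-value can be given, and the number of reads behind a value is unknown.

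A young whole seed holds the embryo, the maternal seed coat and the endosperm, which the study describes as fully resorbed by S5. In early embryogenesis the cells of these tissues divide and are set apart into types, later the cotyledon cells stop dividing, expand and fill with storage reserves, and at the end the seed dries and becomes quiescent. Genes of DNA replication and mitosis are used while cells divide and are little needed in a mature leaf or a dry seed. In whole seeds, fewer cells of a type and less RNA per cell cannot be told apart. The gene identifiers carried no names, so the tissues could not be checked against defining markers, and a role is given only where the study states one.

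The S1-peaking genes were abundant at S1 and most became low by late maturation. Their median was 35.2 FPKM at S1, 10.4 at S2, 6.34 at S3, 3.67 at S4, 1.73 at S5, 0.141 at S6 and 0.1685 at S7, with 0.340 FPKM in leaf. The middle 50% of the genes lay between 19.7 and 80.8 FPKM at S1 and between 0.0190 and 0.763 FPKM at S6. The other 8638 genes with at least 10 FPKM at S1 showed no such course, with medians of 28.6 FPKM at S1, 26.1 FPKM at S5, 26.4 FPKM at S7 and 25.2 FPKM in leaf. The S1-peaking genes made up 3.77% of the FPKM summed over all genes at S1, 1.43% at S2, 0.783% at S3, 0.414% at S4, 0.238% at S5, 0.134% at S6 and 0.149% at S7, with 0.264% in leaf. Their own summed FPKM was 30437 at S1, 2593 at S5, 2596 at S6, 2996 at S7 and 2724 in leaf, and so was not lower after S5. The smaller shares at S6 and S7 reflect larger sums over all genes, which were 1089595 at S5, 1940712 at S6 and 2016862 at S7.

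**Figure D1:**
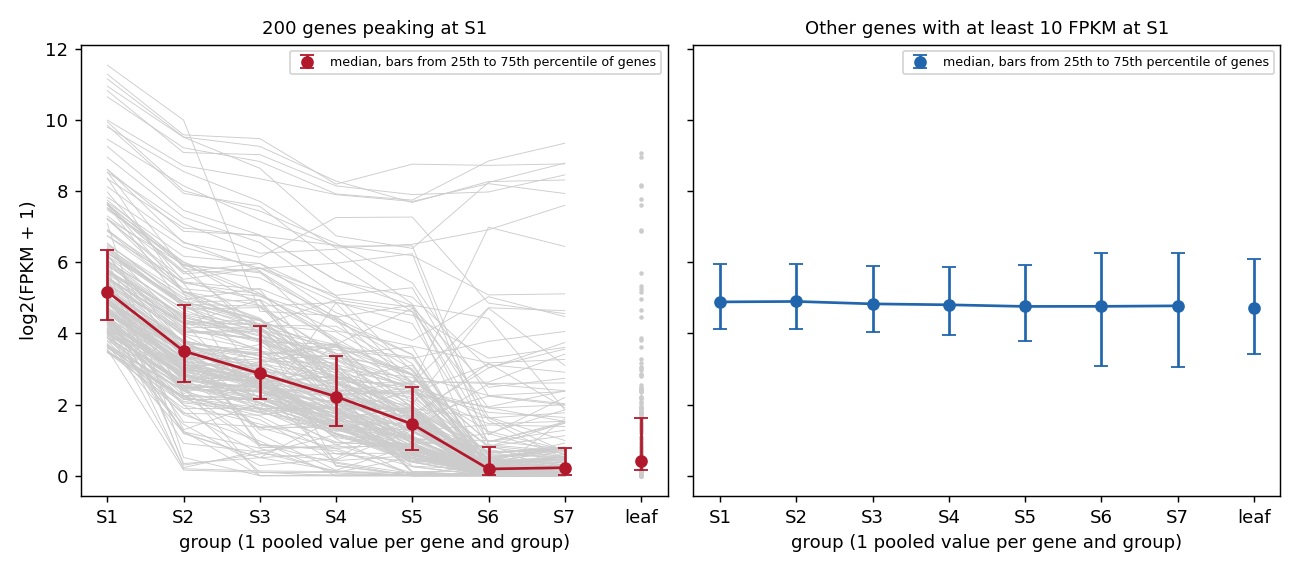
Expression of the 200 S1-peaking genes (left) and of the other 8638 genes with at least 10 FPKM at S1 (right), as log2(FPKM + 1) in each group. Grey lines and dots are single genes, coloured points are medians over genes and bars run between the 25th and 75th percentiles of genes, which are not replicates. The median of the S1-peaking genes drops to 0.141 FPKM at S6, while that of the other genes stays between 25.2 and 28.9 FPKM.

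The gap between S1 and the next highest group was modest for most genes and very wide for a few. The score ranged between 1.22 and 6.31 with a median of 1.48, and the FPKM at S1 was a median of 3.01 times that of the highest other group. A score of at least 2 was reached by 30 genes, at least 3 by 10 genes and at least 4 by 3 genes. At the median, S1 held 57.5% of a gene's FPKM summed over the 8 groups (range 33.7% to 99.2%), and for the other genes with at least 10 FPKM at S1 it held 12.02%. This contrast follows from the choice, which took the genes furthest above the other groups at S1.

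The highest other group was usually the next stage. It was S2 for 158 of the 200 genes (79%), S3 for 22, S4 for 6, S5 for 5, S7 for 2 and leaf for 7, and S6 for 0. At the lower end of the choice the values run on without a break. Ca_02429 (31.3 FPKM at S1 and 12.8 at S2) and Ca_16845 (24.99 FPKM at S1 and 10.2 at S2) were the last genes taken, with scores of 1.22, whereas Ca_01002 (129 FPKM at S1 and 55.1 at S2, score 1.21) and Ca_13225 (1876 FPKM at S1 and 814 at S3, score 1.20) were the first left out. Ca_17966 and Ca_06610 met the score limit with 1.00 but ranked below the 200, and Ca_10739 and Ca_07267 missed it with 0.999 and 0.992. At the limit on abundance, Ca_19586 and Ca_00754 entered with 10.03 and 10.05 FPKM at S1, and Ca_22652 and Ca_13013 were left out with 9.99 and 9.72 FPKM at S1 although their scores of 1.31 and 1.45 were as high as those of genes taken.

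The 10 genes with the widest gap were low everywhere but at S1. Ca_26976 had 135 FPKM at S1, 0.427 at S2 and 0.722 at S7, and was listed at 0 from S3 to S6 and in leaf. Since an exact 0 may mark a failed estimate, fold changes against such values are not given. Its S1 value was 187 times that at S7, the highest other group, and held 99.2% of its sum over the groups. Ca_10158 had 25.3 FPKM at S1, 0.145 at S2, 0.0975 at S3, 0.0831 at S4, 0.0596 at S5, 0.0189 at S6, 0.0234 at S7 and 0.243 in leaf, which puts leaf next after S1. Both stood under 1 FPKM in every group but S1, as did Ca_27525 (18.8 FPKM at S1, at most 0.879 elsewhere) and Ca_10787 (10.7 FPKM at S1, at most 0.435 elsewhere), and no other S1-peaking gene did (4 of 200).

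Leaf was the next highest group for a further pair of these 10 genes. Ca_08639, which the study lists for differentiation, had 55.9 FPKM at S1, 0.230 at S2, 0.528 at S3, 1.23 at S4, 0.408 at S5, 0 at S6, 0.0250 at S7 and 2.35 FPKM in leaf. Ca_11408 had 44.0 FPKM at S1, between 0.0693 and 0.552 FPKM at the later seed stages, and 4.48 FPKM in leaf. Among seed stages these genes thus stood even further apart than their scores of 4.09 and 3.04 show. Ca_03604 (62.3 FPKM at S1, 3.78 at S2), Ca_24568 (22.3 FPKM at S1, 1.27 at S2) and Ca_22277 (21.3 FPKM at S1, 1.35 at S2) were under 1 FPKM at S3 and were listed at 0 at S6 and S7. Ca_16309 was the exception, with 45.3 FPKM at S1, 1.45 at S2, 3.08 at S3, 1.40 at S4 and 2.58 at S5, and so kept a low level through mid-maturation.

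**Figure D2:**
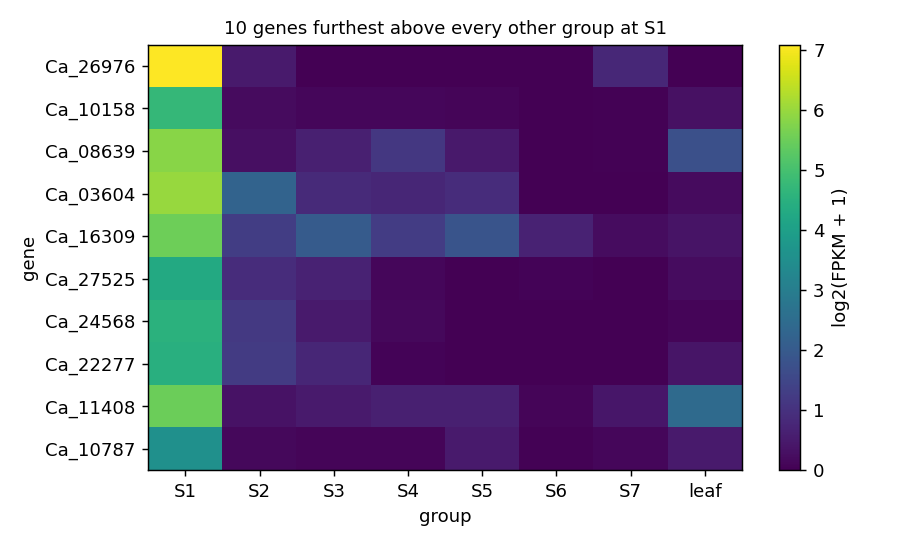
Heat map of the 10 genes with the highest scores, in rows from the highest score down, across the 8 groups in columns, coloured by log2(FPKM + 1). The S1 column holds 10.7 to 135 FPKM, and the brightest other entries are leaf for Ca_11408 (4.48 FPKM) and S2 for Ca_03604 (3.78 FPKM).

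The most abundant S1-peaking genes behaved in other ways. At S1, 43 genes had at least 100 FPKM, 12 at least 500 FPKM and 7 at least 1000 FPKM. Ca_22198 was the highest, with 2987 FPKM at S1, 1023 at S2, 23.7 at S3, 21.7 at S4, 4.87 at S5, 126 at S6, 86.3 at S7 and 21.0 FPKM in leaf. Its level was thus far lower at S3 than at S2, and was higher again at S6 and S7 than at S5.

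The next 4 genes in abundance never went low. Ca_02600 had 2502 FPKM at S1, 767 at S2, 713 at S3, 293 at S4, 433 at S5, 423 at S6, 435 at S7 and 497 FPKM in leaf. Ca_02581 had 2282 FPKM at S1, 736 at S2, 613 at S3, 311 at S4, 205 at S5, 308 at S6, 318 at S7 and 219 FPKM in leaf. Ca_03246 had 1982 FPKM at S1, 732 at S2, 399 at S3, 106 at S4, 83.0 at S5, 303 at S6, 442 at S7 and 540 FPKM in leaf, the highest leaf level of the 200 genes. Ca_14632 had 1819 FPKM at S1 and stayed between 194 and 543 FPKM in the other groups. For these genes S1 was a peak over levels that differed between groups but stayed at 83.0 FPKM or more in each of them.

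In all, 10 S1-peaking genes had at least 10 FPKM in every group, 7 of them among the 12 most abundant at S1. Ca_17997 (1610 FPKM at S1) is one of them and had the highest levels of the 200 genes at S6 and S7, with 461 and 651 FPKM. Of the 12, Ca_23117, Ca_11493, Ca_07792 and Ca_09648, whose 988, 920, 704 and 613 FPKM at S1 were chosen for description after their values were seen, took the other course and had at most 4.46 FPKM at S6, S7 and in leaf. An entry that joins Ca_11493 to the neighbouring identifier Ca_11494 was also highest at S1, with 128 FPKM, against 33.9 FPKM at S2.

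**Figure D3:**
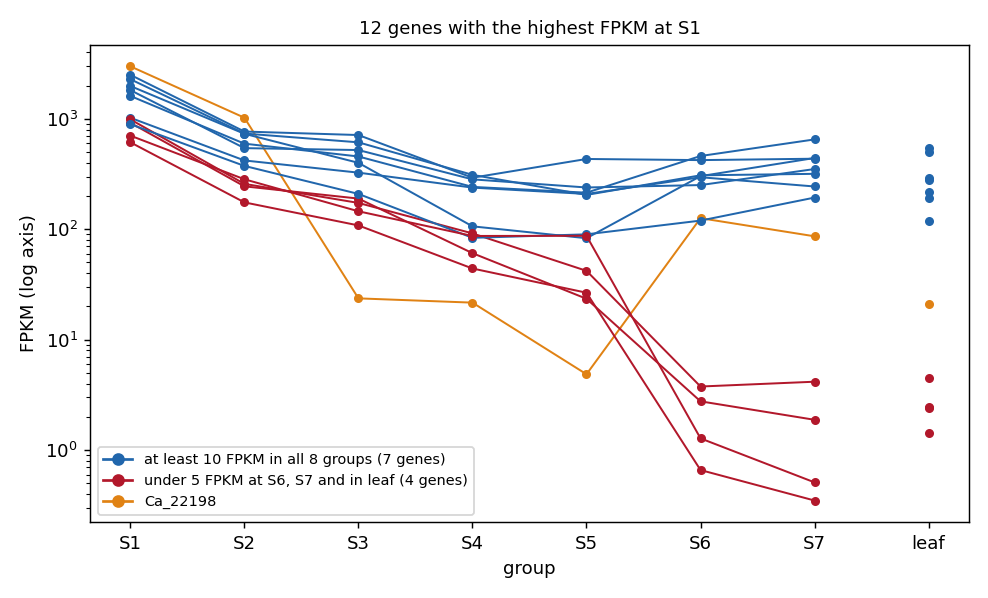
FPKM of the 12 S1-peaking genes most abundant at S1, on a log axis, in each group, with seed stages joined by lines and leaf apart. The lowest value among the 7 blue genes is 83.0 FPKM, the 4 red genes are under 5 FPKM at S6, S7 and in leaf, and Ca_22198 (orange) dips to 4.87 FPKM at S5.

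The levels after S1 were used by the choice only as an upper bound, and the order among them was not. A lower level at each step from S1 through S5 was found in 127 of the 200 genes (63.5%), against 6.99% of all genes with at least 10 FPKM at S1, and 28 (14%) were lower at each step through S7, against 1.7%. Since S2 had to be below S1 in the chosen genes, part of this difference was fixed by the choice. Single steps after S2 were also counted, with a limit of 2-fold on log2(FPKM + 1), leaving out genes under 1 FPKM at both stages. Each of these levels was still capped by the choice, so the small shares of higher genes were partly fixed by it. A gene counted through only 1 of the stages is more likely to differ, so the counts cover the genes still expressed and not all 200.

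At S3, 28 of 193 S1-peaking genes (14.5%) were at least 2-fold lower than at S2, against 7.32% of all genes, and 0 were 2-fold higher, against 4.54%. At S4, 69 of 182 (37.9%) were lower than at S3, against 6.93% of all genes, and 4 were higher, against 7.55%. At S5, 54 of 175 (30.9%) were lower than at S4, against 10.9% of all genes, and 2 were higher, against 8.38%. At each of these steps the lower genes were a larger share of the S1-peaking genes than of all genes, and the higher genes a smaller one.

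The step into S6 held the largest share of lower genes, both among these genes and among all genes. At S6, 88 of 128 S1-peaking genes (68.8%) were at least 2-fold lower than at S5, against 30.6% of all genes, and 9 were higher, against 25.7%. The median difference of S6 minus S5 was -1.32 on the log2 scale for the S1-peaking genes and -0.06 for all genes. At S7, 4 of 48 were lower than at S6, against 3.69% of all genes, and 2 were higher, against 1.36%, which leaves few genes to compare.

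These counts depend on how libraries are scaled, and the FPKM summed over genes was 807429 at S1, 1940712 at S6 and 2016862 at S7. With every library brought to the same sum, the median of all genes for S1 minus S6 moved to 1.19 on the log2 scale, against 0.10 as deposited. The 2-fold lower genes then became 52 of 194 at S3 (26.8%, against 10.9% of all genes) and 97 of 178 at S5 (54.5%, against 20.4% of all genes). At S6 they became 96 of 124 (77.4%, against 44.0% of all genes), so that at each of these steps the share stayed above that of all genes.

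**Figure D4:**
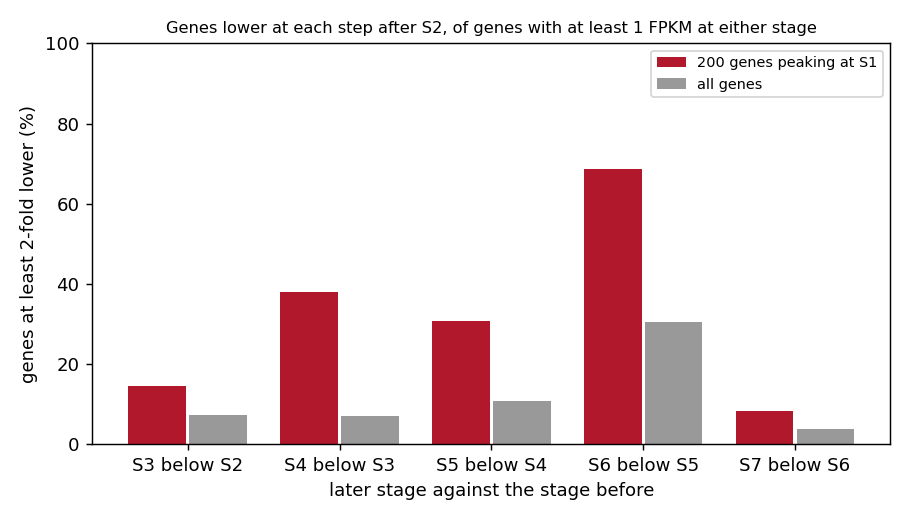
Share of genes at least 2-fold lower at a stage than at the stage before, for the S1-peaking genes (red) and all genes (grey), leaving out genes under 1 FPKM at both stages. Red bars exceed grey bars at each step, from 14.5% against 7.32% at S3 to 68.8% against 30.6% at S6, and the last pair rests on only 48 S1-peaking genes.

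By the end of seed development most of the genes were below the level taken here as expressed. At least 1 FPKM was reached by 200 genes at S1, 193 at S2, 180 at S3, 172 at S4, 127 at S5, 42 at S6 and 43 at S7, with 69 genes in leaf. Of the other 8638 genes with at least 10 FPKM at S1, 7810 reached it at S6, 7756 at S7 and 8206 in leaf. The choice capped the later levels, so part of this contrast was fixed by it. Under 1 FPKM at S6, S7 and in leaf alike stood 122 of the 200 genes (61%), against 4.46% of all genes with at least 10 FPKM at S1. Listed at 0 were 10 genes at S5, 42 at S6, 48 at S7 and 5 in leaf, and 63 genes were listed at 0 in at least 1 group. Of the other 8638 genes, 21 were listed at 0 at S5, 91 at S6, 150 at S7 and 25 in leaf. At the other end, 33 of the 200 S1-peaking genes had at least 1 FPKM in every group.

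Leaf lay between mid- and late-maturation seeds. S2 was at least 2-fold higher than leaf for 166 of 195 genes (85.1%), against 26.7% of all genes, and lower for 4, against 23.1%. S3 was higher for 146 of 185 (78.9%), against 27% of all genes, and lower for 4, against 24.9%. S4 was higher for 127 of 175 (72.6%), against 27.8%, and lower for 4, against 25.6%. Up to S4 the S1-peaking genes were thus mostly above leaf. The choice capped leaf and each later stage alike, so the shares against leaf were partly fixed by it. S5 was higher for 73 of 133 (54.9%), against 27.7%, and lower for 15 (11.3%), against 27.2%. At S6, 8 of 74 genes (10.8%) were higher than in leaf, against 29.5% of all genes, and 28 (37.8%) were lower, against 32.8%. At S7, 10 of 77 (13.0%) were higher than in leaf, against 29.8%, and 31 (40.3%) were lower, against 32.9%. The share of S1-peaking genes lower than leaf in late-maturation seeds was thus not far from that of all genes, and the share higher than leaf was smaller. At the same sum for every library, 42 of 75 (56%) were lower at S7 than in leaf, against 46.9% of all genes. At least 10 FPKM was reached by 16 genes at S7 and by 18 in leaf, and at least 100 FPKM by 7 at S7 and by 8 in leaf. Of the other 8638 genes with at least 10 FPKM at S1, 6067 reached 10 FPKM at S7 and 6426 in leaf.

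Higher levels at a later stage were rarer than among other genes, and the genes named for them were described after their values were seen. At S4 or S5, 5 of the 200 genes (2.5%) were at least 2-fold higher than at S3, against 12.8% of all genes with at least 10 FPKM at S1. At S7, 8 of 200 (4%) were at least 2-fold higher than at S5, against 23.9%. Since the choice capped every later level, these low shares were partly fixed by it. Ca_06747 was in both sets, with 330 FPKM at S1, 34.1 at S2, 2.61 at S3, 28.1 at S4, 5.07 at S5, 25.4 at S6, 24.0 at S7 and 116 FPKM in leaf. Ca_16704 had 391 FPKM at S1, 92.3 at S2 and 69.7 at S3, then 152 at S4 and 154 at S5, and 27.9 at S6, 22.6 at S7 and 50.8 FPKM in leaf. In Ca_16704 the second level was therefore held at S4 and S5, whereas in Ca_06747 it came and went between neighbouring stages.

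Cell cycle genes were the best represented of the functional lists that the study gives. They drive DNA replication, chromosome separation and cell division. Of the 184 listed cell cycle genes with at least 10 FPKM at S1, 37 (20.1%) met both limits, against 3.26% of all genes, and 25 were among the 200. S1 was the highest of the 8 groups for 77 of the 184 (41.8%), against 18.2% of all genes with at least 10 FPKM at S1, and their median score was -0.25, against -0.82. The study took such genes by their gene ontology terms, and its lists hold those at a differentially methylated region or with a difference in expression, between stages of this cultivar or between cultivars. Expression in these libraries thus entered the lists in part, so the counts are not independent evidence, and no enrichment was tested.

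The 25 cell cycle genes ran much like the 200 as a whole. Their median was 35.7 FPKM at S1, 12.7 at S2, 9.66 at S3, 5.70 at S4, 2.04 at S5, 0.312 at S6 and 0.439 at S7, with 0.507 FPKM in leaf. Their scores lay between 1.26 and 1.93, so none was among the genes with the widest gaps. All 25 still had at least 1 FPKM at S4, 6 were under 1 FPKM at S5, 20 (80%) at S6, 19 (76%) at S7 and 16 (64%) in leaf, against 79% at S6, 78.5% at S7 and 65.5% in leaf of the 200 genes. A lower level at each step from S1 through S5 was found in 15 of the 25 (60%), against 63.5% of the 200.

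Within the cell cycle list the genes differed widely in level. Ca_15583 was the most abundant, with 390 FPKM at S1, 116 at S2, 108 at S3, 44.0 at S4, 31.5 at S5, 7.22 at S6, 10.8 at S7 and 13.0 FPKM in leaf. Ca_20778 had 194 FPKM at S1, 63.7 at S2, 34.0 at S3, 12.5 at S4, 6.24 at S5, 0.372 at S6, 0.711 at S7 and 1.48 FPKM in leaf. Ca_15583 thus kept at least 7.22 FPKM at S6, S7 and in leaf, where Ca_20778 was at 1.48 FPKM or less.

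Ca_18942 had the highest score of the list (1.93) and the earliest drop, with 35.7 FPKM at S1, 8.64 at S2, 1.43 at S3, 1.75 at S4, 0.205 at S5, 0.122 at S6, 0.0905 at S7 and 0.0190 FPKM in leaf. Ca_09909, which also lies in a QTL for seed size/weight by the study's list, had 24.8 FPKM at S1, 6.59 at S2, 5.07 at S3, 1.24 at S4 and 0.304 at S5, was listed at 0 at S6 and S7, and had 0.0174 FPKM in leaf. In both genes leaf held the lowest or nearly the lowest level. Ca_07192 instead had 4.29 FPKM in leaf while listed at 0 at S6 and S7, after 52.3 FPKM at S1, 15.4 at S2, 16.3 at S3, 7.47 at S4 and 1.63 at S5.

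Of the other cell cycle genes with high scores, Ca_06508 was also listed for cell growth and differentiation. It had 92.1 FPKM at S1, 28.3 at S2, 29.8 at S3, 4.44 at S4, 0.898 at S5, 0.0360 at S6, 0 at S7 and 0.712 FPKM in leaf. Ca_17533 had 65.6 FPKM at S1 and 20.9 at S2, Ca_05156 had 47.4 FPKM at S1 and 15.7 at S3, Ca_00203 had 37.8 FPKM at S1 and 12.4 at S2, and Ca_16212 had 15.9 FPKM at S1 and 4.81 at S2. All 4 were at 4.74 FPKM or less at S5 and at 1.38 FPKM or less at S6.

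The study names some cell cycle genes among its candidates for seed size/weight, and a group of them concerns the start of DNA replication. CDC6 loads the ring-shaped minichromosome maintenance (MCM) helicase onto replication origins in yeast, animals and plants, and the study calls 3 further candidates minichromosomes. Of these 3, Ca_09549 had 63.9 FPKM at S1, 24.7 at S2, 25.5 at S3, 9.85 at S4, 6.13 at S5, 3.77 at S6, 3.07 at S7 and 1.56 FPKM in leaf. Ca_15408 had 45.4 FPKM at S1, 18.2 at S2, 18.4 at S3, 8.50 at S4, 4.52 at S5, 0.781 at S6, 0.549 at S7 and 0.851 FPKM in leaf. These 2 S1-peaking genes thus had nearly the same level at S2 and S3 and a lower one at S4.

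The third gene of that name, Ca_12014, was not S1-peaking, with 3.90 FPKM at S1 and its highest value of 4.74 FPKM at S5. Ca_15618, the gene the study calls CDC6, had 9.54 FPKM at S1, 3.67 at S2, 3.52 at S3, 2.21 at S4, 1.72 at S5, 0.0397 at S6, 0.0834 at S7 and 0.149 FPKM in leaf. Its score of 1.17 met the limit but its abundance at S1 was just short of 10 FPKM. Of the 13 candidates that the study names, 5 were highest at S1. Not every candidate had 10 FPKM at S1, and Ca_15618, among the 5, did not. The 18.2% of all genes that were highest at S1 covers only genes at that level, so it cannot be set against these 13. The study chose the candidates for higher methylation and expression at S3 and/or S5 in JGK 3 than in a small-seeded cultivar. Besides Ca_09549, Ca_15408 and Ca_15618, the 5 included Ca_10748, an auxin response factor (118 FPKM at S1, 81.9 at S2, score 0.52). The last was Ca_09815, a C3HC4-type zinc finger protein (25.6 FPKM at S1, 22.6 at S4, score 0.18).

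**Figure D5:**
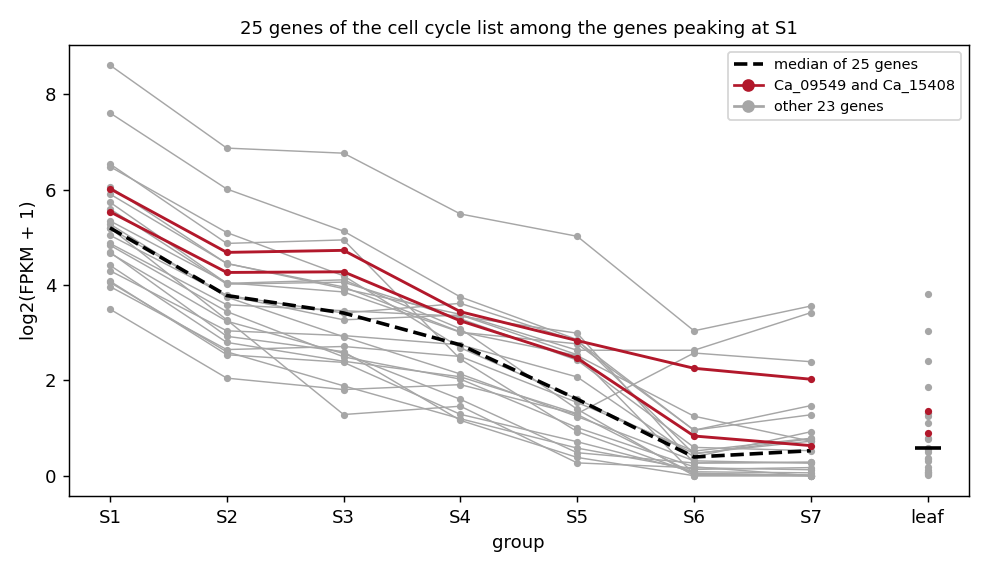
The 25 cell cycle genes among the S1-peaking genes, as log2(FPKM + 1) in each group, with leaf apart. The dashed line and bar give their median, which goes down through 35.7 FPKM at S1, 5.70 at S4 and 0.312 at S6, and the red lines are Ca_09549 and Ca_15408, which are level between S2 and S3.

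The other lists were thinner. For differentiation, 16 of 344 genes with at least 10 FPKM at S1 (4.65%) met both limits and 8 were among the 200, for cell growth 7 of 92 (7.61%) and 4, for desiccation 2 of 77 (2.60%) and 1, and for grain filling 0 of 87. The shares for differentiation and desiccation are near the 3.26% of all genes, that for cell growth is above it and that for grain filling below it. Altogether 43 S1-peaking genes were on at least 1 of the process and QTL lists, and 6 of the 25 cell cycle genes were also on another.

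The cell growth and differentiation genes overlapped, since all 4 S1-peaking genes listed for cell growth were also listed for differentiation. Beside Ca_06508, these were Ca_13226 (27.4 FPKM at S1, 7.86 at S2, 5.30 at S3, 1.05 at S4, listed at 0 from S5 to S7, and 0.177 in leaf), Ca_17166 (14.2 FPKM at S1, 5.07 at S3) and Ca_03574. Ca_03574 had 12.1 FPKM at S1, 1.72 at S2, 0.218 at S3, 0.394 at S4 and 2.23 at S5, was listed at 0 at S6 and S7, and had 0.0128 FPKM in leaf. It was thus one of the 5 genes with S5 next after S1. Ca_02620, listed for differentiation only, had 17.8 FPKM at S1, 3.44 at S3 and 2.83 in leaf and was listed at 0 at S6 and S7. All 8 differentiation genes were under 1 FPKM at S6 and at S7.

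The desiccation list, named for the drying of the ripe seed, was represented by Ca_05754 only. It had 177 FPKM at S1, 62.9 at S2, 26.5 at S3, 5.20 at S4, 2.69 at S5, 0.0210 at S6 and 0.172 at S7, with 0.488 FPKM in leaf. Its lowest values were thus at S6 and S7, the stages nearest to the dry seed.

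Among genes that the study places in QTLs for seed size/weight, 17 of 460 with at least 10 FPKM at S1 (3.70%) met both limits, near the 3.26% of all genes, and 15 were among the 200. Ca_07589 was the most abundant, with 215 FPKM at S1, 60.3 at S2, 32.2 at S3, 15.9 at S4, 11.5 at S5, 8.01 at S6, 8.65 at S7 and 6.17 FPKM in leaf. It alone of the 15 had at least 1 FPKM at S6 or S7. Ca_04559 (30.5 FPKM at S1, 3.95 at S2) was higher again at S3, with 7.91 FPKM, and kept 4.48 FPKM at S5.

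Ca_05350 and Ca_05351 were the only S1-peaking genes with consecutive identifiers, and both are on the QTL list. Ca_05350 had 29.1 FPKM at S1, 6.96 at S2, 5.04 at S3, 1.78 at S4, 0.534 at S5, 0.0355 at S6, 0.0425 at S7 and 0.361 in leaf. Ca_05351 had 185 FPKM at S1, 58.9 at S2, 52.6 at S3, 20.5 at S4, 9.63 at S5, 0.265 at S6, 0.399 at S7 and 0.502 in leaf. Single identifiers directly beside those of S1-peaking genes, and not themselves S1-peaking, were highest at S1 about as often as all genes. Of 155 such neighbours with at least 10 FPKM at S1, 27 (17.4%) were highest at S1, against 18.2% of all genes. The figure for all genes includes the S1-peaking genes, so the shares are not fully alike. Entries joining several identifiers were left out of this count. Those next to Ca_02600 and Ca_16704 met both limits, and how many joined neighbours did not was not counted.

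The study also lists genes that both changed in expression and lay at a differentially methylated region (DMR) in a transition between stages. Cytosine methylation in plants occurs in CG, CHG and CHH contexts, where H is A, C or T, and CHH methylation is laid down anew rather than copied with the DNA strand. On the list for S2 against S1 were 20 of the 200 S1-peaking genes (10%), against 1.47% of all genes with at least 10 FPKM at S1. That list was drawn up on expression at S1 and S2 in these samples, as were the S1-peaking genes. It asks for at least a 2-fold change, and every S1-peaking gene was at least 2.38 times higher at S1 than elsewhere. The choice thus met that limit for all 200 genes but not for the genes they are set against. The difference in shares therefore says nothing about methylation, and a link was not tested. All 20 were listed as hypermethylated in CHH context, 17 upstream, 1 in the gene body and 5 downstream, but so were 378 of the 382 genes on the list (99.0%). None of the 25 cell cycle genes was on it (0 of 25). Ca_12159, Ca_03024, Ca_11374 and Ca_04110, cell cycle genes that met both limits but ranked below the 200, were on it. The lists for S3 against S2, S5 against S3 and S7 against S5 held 8, 12 and 17 of the S1-peaking genes. These are 4%, 6% and 8.5% of the 200, against 0.905%, 3.85% and 7.57% of all genes with at least 10 FPKM at S1, so the last share is near that of all genes. These lists too were drawn up on expression in these samples, which the choice also used, so the shares are not independent of it.

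The rule left out 4 identifiers by number, and some of them share the pattern. Ca_23587 (41.6 FPKM at S1, 13.9 at S2, score 1.52) and Ca_17866 (23.4 FPKM at S1, 8.56 at S2, score 1.35) met both limits. Ca_18432 (11.8 FPKM at S1, 6.01 at S3, score 0.87) and Ca_20580 (23.2 FPKM at S1, 21.1 at S4, score 0.13) did not.

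Some identifiers stood on several entries of the tables, and the entry with the highest mean was used. Among the 200 genes, 7 had a further entry that the choice did not use. That entry was also highest at S1 for Ca_16845 (20.2 FPKM at S1, 6.02 at S2), Ca_07377 (3.66 FPKM at S1, 1.26 at S4) and Ca_27363 (0.0291 FPKM at S1). It was highest at S4 for Ca_04441 (1.76 FPKM, with 1.07 at S1) and at S2 for Ca_22277 (6.50 FPKM, with 2.61 at S1), and was listed at 0 in every group for Ca_16704 and Ca_23993. The pattern of Ca_22277, one of the 10 genes with the widest gap, therefore holds for its main entry only.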

How the data were processed

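RNA-seq libraries of leaf and of whole seeds at 7 stages of the cultivar JGK 3 had been made for an earlier study by the same group, and sample titles gave the groups. According to the labels and methods, the authors filtered reads with NGS QC Toolkit, mapped them with TopHat to the kabuli chickpea genome and computed FPKM with Cufflinks. The authors deposited 1 FPKM column per group. How the 3 samples were combined and how libraries were scaled to each other is not given in the sources used here. No p-values could be computed and read depth is unknown, so no interval for counting error is given.

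The tables were joined by their 35234 entries. The 26305 entries with a single gene identifier were kept, and for the 1168 identifiers on several entries the one with the highest mean was used, which left 25111 genes. A pseudocount of 1 FPKM was added before log2, so that differences of low genes are understated. The rule left out 4 identifiers. The members, lists and limits were chosen with earlier results of these data known. Process, QTL and DMR lists were read as identifiers from the study. No identifier matched the RefSeq name table (0 matches), so the few gene names are those in the study's text, and sequences and coordinates were not used here.

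Genes named were the 10 with the highest score, the 5 highest at S1, the 10 (cell cycle) or 5 (other lists) with the highest score per list, the highest in each other group, those next to each limit, 5 with further entries and study candidates highest at S1. Others were named after their values were seen. Alternatives were pseudocounts of 0.1 and 5, other limits, 3 scalings, other handling of repeated entries and of zeros, and each group left out. The calculation was tested on simulated data. Python 3.11.15, pandas 2.3.3, numpy 2.4.6 and matplotlib 3.10.9 were used.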

Additional observations from a re-analysis of the deposited data

Results flagged for a closer look

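Entries outside the comparisons also showed the pattern. Of 7268 entries that had a locus label but no gene identifier, 518 had at least 10 FPKM at S1 and 43 met both limits. The first by score, XLOC_018242, had 424 FPKM at S1, 3.62 at S2, 4.58 at S5 and 4.56 in leaf, and was listed at 0 at S3, S4, S6 and S7. Of 1661 entries that joined several identifiers, 1173 had at least 10 FPKM at S1 and 19 met both limits. Of the genes with a single identifier, 288 of 8838 with at least 10 FPKM at S1 (3.26%) met both limits. This share was below that of the locus entries and above that of the joined entries. These entries were singled out because they lie outside the genes described above.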

How the results depend on the processing

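No paired analysis was possible because the columns hold 1 pooled value per group and carry no replicate numbers, and for the same reason no replicate could be left out. The count of genes meeting both limits was 288 and stayed between 202 and 430 under the other pseudocounts, scalings, entries, minimum levels and groups, of which the 6 settings that leave out a single seed stage were chosen after seeing the data. It was 30 with a score of at least 2. Of the 200 genes, 168 were again among the 200 highest with libraries at the same sum, 153 with S2 left out of the other groups (430 genes met both limits) and 137 without genes listed at 0. The 28 genes lower at S3 than at S2 became 12 with a pseudocount of 5, 8 with a 4-fold limit and 52 at the same sum. The 31 genes lower at S7 than in leaf became 11 with a pseudocount of 5 and 14 with a 4-fold limit, and were 36 with a pseudocount of 0.1 and 42 at the same sum. The 54 genes lower at S5 than at S4 became 97 at the same sum, a scaling added for this step after seeing the data. Cell cycle genes meeting both limits numbered 25 to 41 under the other pseudocounts and list membership, against 37. Depth and replicate spread are unknown, so how precise the low values at S6, S7 and in leaf are cannot be given.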
